A study of Mus musculus with 8 samples.

Results

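Type I interferon-stimulated genes were followed in mouse epidermis that lacked or carried the stress protein REDD1, with and without a phorbol ester and a glucocorticoid. The genes were a list of 44 symbols. All 44 were found among the 54232 gene identifiers of the count files by their Ensembl identifiers, and all 44 had 10 or more counts summed over the libraries, as did 25321 identifiers in all. A filter on low counts left 39 of them among the 19251 genes tested. Ifit3, Ifit3b, Ifit1bl1, Oasl1 and Ifi44l, with sums of 52, 13, 11, 30 and 43 counts, did not pass it.

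RNA sequencing was done on total RNA from epidermis scraped off the shaved back skin of female mice, REDD1 knockout (KO) or wild type (WT), both on an F1 C57Bl x 129 background. Vehicle skin received 200 ul acetone and came as 2 KO and 2 WT libraries. Skin given the phorbol ester TPA (4 ug, spelled 12-O-tetradecanoyl-acetate in the labels), an irritant and tumour promoter, came as 1 KO and 1 WT library. Skin given the glucocorticoid fluocinolone acetonide (FA), at 2 ug and 1 h ahead of the same TPA dose, also came as 1 KO and 1 WT library. Treated skin was taken 24 h after TPA. The labels do not say whether replicates came from separate mice, so p-values measure only how far these samples spread. That spread may be technical. In tests of treatment, and of genotype over all treatments, it also holds any difference between genotypes in the response to treatment.

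Type I interferons bind a receptor made of Ifnar1 and Ifnar2, whose kinases Jak1 and Tyk2 phosphorylate transcription factors that include Stat2. Stat2 and Irf9 are subunits of the complex ISGF3, which binds interferon-stimulated response elements and switches on genes that sense, degrade or block viral RNA and proteins. In skin, keratinocytes make interferon kappa at rest, and glucocorticoids are known as inhibitors of interferon responses.

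The promoters shown next are those of genes described further on, some with a response element match and some without. The response element was searched as GAAA, any 2 bases and a second GAAA, on both strands of the 250 bases before each start in the RefSeq promoter table of mouse assembly GRCm38.p6. Matches could overlap each other. The table held 33 of the 44 genes, and 13 of these (39.4%) had at least 1 match, against 3.46% of all 27025 genes in it and 2.98% of its 32851 promoters. The gamma-activated site, searched in the same way as TTCNNNGAA, where N is any base, was found in 6 of the 33 genes (18.2%) against 8.13% of all genes. Sequences are given 5′ to 3′ on the gene's strand, with letters of a response element match in capitals on whichever strand it lies. They were Ifit1 (chr19:34640755-34640843, plus strand), Rsad2 (chr12:26456533-26456602, minus strand), Isg15 (chr4:156200845-156200926, minus strand), Bst2 (chr8:71537557-71537632, minus strand), Trim30a (chr7:104465194-104465259, minus strand), Stat2 (chr10:128270248-128270315, plus strand), Oasl2 (chr5:114896854-114896933, plus strand) and Ifi44 (chr3:151749911-151749990, minus strand).
Ifit1: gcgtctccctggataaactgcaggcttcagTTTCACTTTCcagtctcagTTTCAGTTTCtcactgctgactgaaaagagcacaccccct
Rsad2: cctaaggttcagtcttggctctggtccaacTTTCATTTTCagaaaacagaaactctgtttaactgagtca
Isg15: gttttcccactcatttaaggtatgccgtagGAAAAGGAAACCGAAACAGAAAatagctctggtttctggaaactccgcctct
Bst2: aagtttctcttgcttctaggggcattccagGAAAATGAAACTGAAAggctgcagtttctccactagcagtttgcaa
Trim30a: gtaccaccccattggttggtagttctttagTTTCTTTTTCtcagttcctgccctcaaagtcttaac
Stat2: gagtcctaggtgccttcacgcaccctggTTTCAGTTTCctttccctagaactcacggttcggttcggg
Oasl2: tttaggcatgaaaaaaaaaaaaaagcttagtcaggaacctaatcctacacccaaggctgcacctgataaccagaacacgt
Ifi44: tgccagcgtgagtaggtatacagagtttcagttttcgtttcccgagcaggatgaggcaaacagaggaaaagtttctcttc
Isg15 held 3 overlapping matches, and Ifit1 and Bst2 held 2 each. Oasl2 and Ifi44 held none of these letters, although both were among the genes highest in KO relative to WT. A match is a description of the letters and not of binding.

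**Figure D1:**
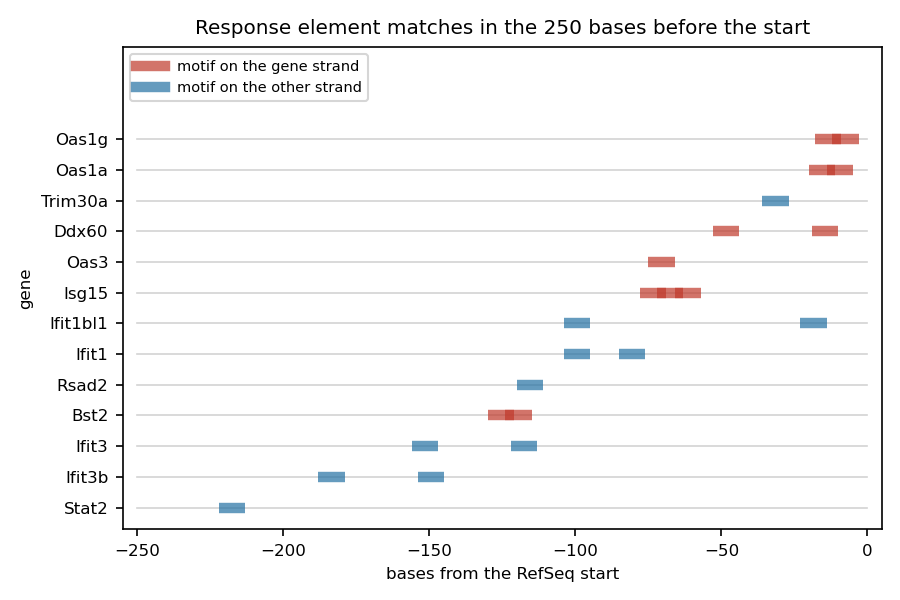
Position of each response element match in the 13 genes that held one, in bases from the RefSeq start (x axis), with one row per gene and colour for the strand of the motif. Matches reached from 222 bases before the start in Stat2 to 3 bases before it in Oas1g.

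Library totals ranged from 16874233 to 22560098 counts, and levels are given as CPM, read counts relative to library size, after TMM normalisation, which balances library composition. On that scale the 3 counts that a reading of 0 still allows came to between 0.135 and 0.191 CPM, covering counting error only. Ddit4, the gene of REDD1 (ENSMUSG00000020108, chromosome 10, 59949669 to 59951834, mm10), was at 18.8 and 18.6 CPM in KO vehicle against 128 and 117 CPM in WT vehicle. It was at 4.44 CPM in KO against 64.2 CPM in WT after TPA, and at 7.25 CPM in KO against 90.3 CPM in WT after FA+TPA, so every library matched its genotype label. Keratinocyte markers summed to between 18015 and 32668 CPM in every library, as the tissue label says. The vehicle replicates of each genotype differed by more than counting noise, since chi-square over its degrees of freedom was 12.4 in KO and 27.6 in WT. Part of both values came from 1 noncoding transcript, Gm26917. It had 1790964 and 2506314 counts in KO vehicle and 2333030 and 1481612 counts in WT vehicle.

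Interferon-stimulated transcripts differed widely in level in this epidermis. Per kilobase of exon, the level averaged over the libraries was highest for Ifitm3 at 55.5 CPM per kb, Ifi27 at 32.5 and Ifitm6 at 31.6, and was at most 8.93 CPM per kb, in Irf9, for the other genes. Ifitm3 and Ifitm6 belong to a family of membrane proteins of which Ifitm3 blocks virus entry, and Ifi27 encodes a small interferon-induced membrane protein. Ifi27 (ENSMUSG00000064215, chromosome 12, 103434211 to 103440239) had 60.5 and 48.3 CPM in KO vehicle and 42.1 and 46.0 CPM in WT vehicle. After TPA it had 50.4 CPM in KO and 40.7 CPM in WT, and after FA+TPA 49.3 CPM in KO and 44 CPM in WT. Its KO libraries lay above the WT library or libraries under each treatment, but it passed no test. The classical antiviral genes were much lower per kilobase, for example Ifit1 at 0.591, Rsad2 at 0.251 and Ifi44 at 0.137 CPM per kb. Ifit3, Ifit3b, Ifit1bl1, Oasl1 and Ifi44l did not exceed 0.988 CPM in any library and were not tested.

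The plot of all genes by library shows a KO vehicle library that stood apart. KO vehicle replicate 1 was the highest of the 8 libraries for 23 of the 39 tested genes, against 11.7% of all genes tested. Relative to the mean of WT vehicle, on the log2(CPM + 0.5) scale, the median over the 39 genes was 0.73 in KO vehicle replicate 1 and 0.32 in KO vehicle replicate 2. The median was -0.17 in WT vehicle replicate 1 and 0.15 in WT vehicle replicate 2, where 29 of the 39 lay above 0. KO vehicle replicate 2 thus lay closer to WT vehicle replicate 2 than the WT replicates lay to each other. The median was 0.64 in KO and -0.03 in WT after TPA, and -0.31 in KO and -0.52 in WT after FA+TPA.

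**Figure D2:**
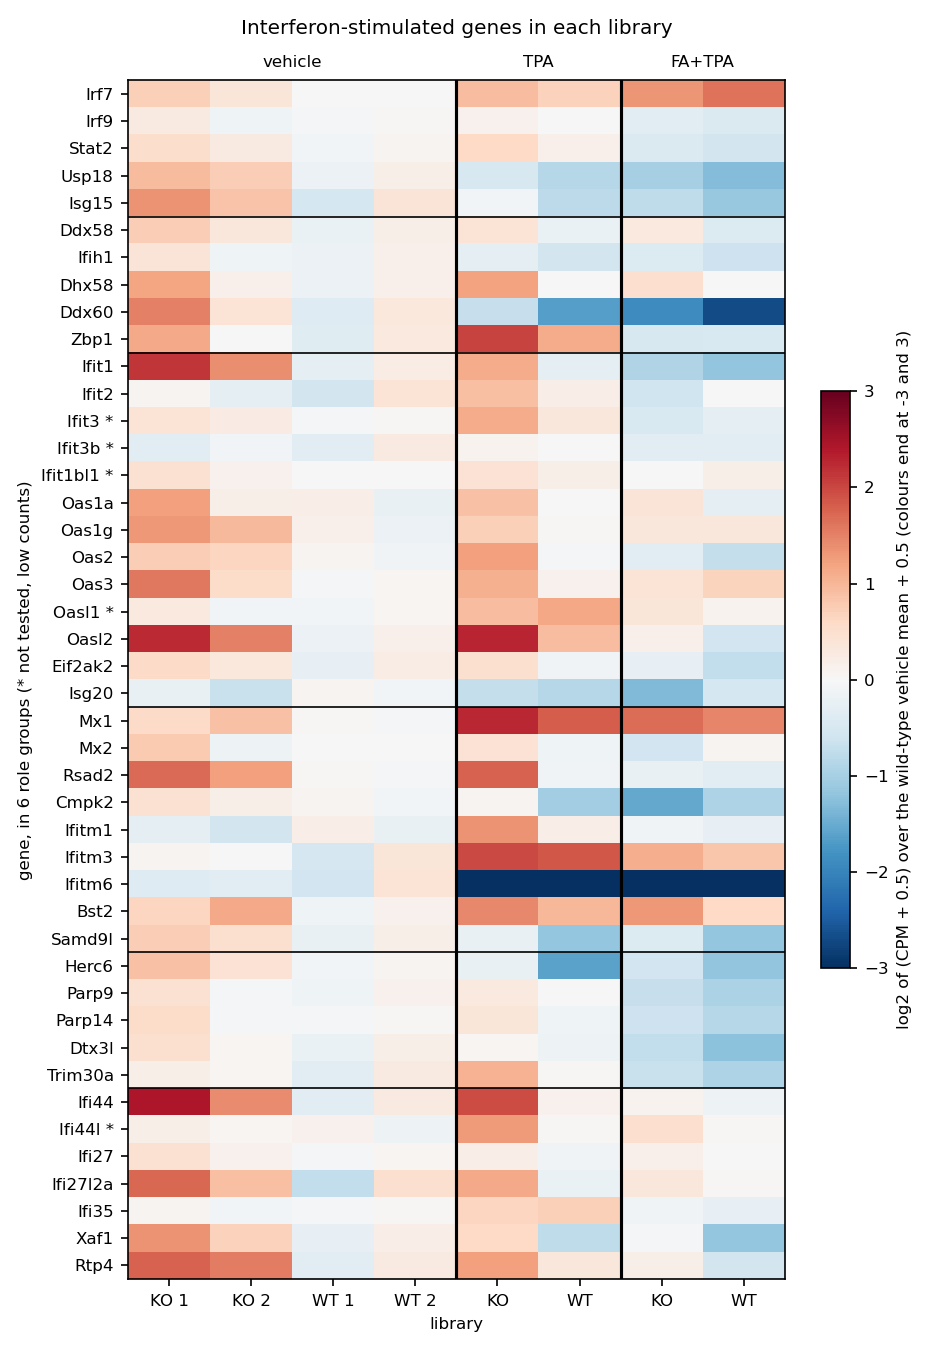
Level of the 44 genes (rows, in 6 role groups separated by lines) in the 8 libraries (columns, by treatment), as log2 of CPM + 0.5 over the wild-type vehicle mean + 0.5, red for higher and blue for lower, with an asterisk for the 5 genes not tested. The KO vehicle and KO TPA columns are mostly red and the FA+TPA columns mostly blue. Medians over the 39 tested genes are 0.73 and 0.32 in KO vehicle, -0.17 and 0.15 in WT vehicle, and 0.64 in KO TPA. They are -0.31 in KO FA+TPA and -0.52 in WT FA+TPA.

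The first comparison asked how REDD1 loss went with the level of these genes. Over all treatments 13 of the 39 were higher in KO than in WT and 0 were lower, by edgeR's quasi-likelihood test with Benjamini-Hochberg adjustment over all genes, where 1.98% of all genes tested were called higher, 1.60% lower and 3.58% in all. The median difference was 0.62 on the log2 scale, against -0.01 over all genes, and 37 of the 39 lay above 0. Isg20 (-0.53 ± 0.28, SE) and Ifitm6 (-0.14 ± 0.22) lay below 0 and did not pass. DESeq2 called 15 genes and limma-voom 13, all higher in KO, and 27 of the 39 had an unadjusted p under 0.05. Here and below, DESeq2 calls, limma-voom calls and unadjusted p are counts only, since their shares over all genes are not given. KO lay above WT under each treatment, with no overlap in vehicle skin, for 20 of the 39 against 8.98% of all genes.

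Among signalling genes, Usp18, a protease that strips the ubiquitin-like modifier Isg15 from proteins and dampens receptor signalling, was called. Usp18 had 15.4 and 13.4 CPM in KO vehicle against 6.78 and 8.79 CPM in WT vehicle, 5.43 CPM in KO against 4.07 CPM in WT after TPA, and 3.68 CPM in KO against 2.86 CPM in WT after FA+TPA. The KO difference was 0.68 ± 0.15 (edgeR adjusted p = 0.0382). Isg15 itself, the modifier, had 7.97 and 5.54 CPM in KO vehicle against 1.81 and 3.83 CPM in WT vehicle, 2.65 CPM in KO against 1.42 CPM in WT after TPA, and 1.45 CPM in KO against 1.02 CPM in WT after FA+TPA. Its KO libraries were above WT under each treatment, but the difference of 1.06 ± 0.26 missed the threshold (edgeR adjusted p = 0.0558). Ddx58, which encodes the RNA sensor RIG-I, had 17.2 and 13.0 CPM in KO vehicle against 8.82 and 11.5 CPM in WT vehicle, 13.6 CPM in KO against 8.75 CPM in WT after TPA, and 12.6 CPM in KO against 7.57 CPM in WT after FA+TPA. Ddx58 was the called sensor, at 0.62 ± 0.13 (edgeR adjusted p = 0.0284).

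Of the effectors that act on RNA and translation, 4 of the 9 tested were called higher in KO. Ifit1 (ENSMUSG00000034459, chromosome 19, 34640871 to 34650009), whose protein binds foreign RNA and blocks its translation, had 5.11 and 2.86 CPM in KO vehicle against 0.565 and 0.983 CPM in WT vehicle. After TPA it had 2.24 CPM in KO against 0.555 CPM in WT, and after FA+TPA 0.181 CPM in KO (3 counts) against 0.0636 CPM in WT (1 count). Its difference over all treatments was 2.22 ± 0.32 (edgeR adjusted p = 0.0046), and it cannot be read after FA+TPA, where both libraries were at or below 3 counts. Oasl2 (ENSMUSG00000029561, chromosome 5, 114896936 to 114912234), of the family that makes oligoadenylates to activate RNase L, had 11.8 and 6.99 CPM in KO vehicle against 1.81 and 2.43 CPM in WT vehicle. After TPA Oasl2 had 12.2 CPM in KO against 4.50 CPM in WT, and after FA+TPA 2.42 CPM in KO against 1.27 CPM in WT. Oasl2 differed by 1.73 ± 0.25 (edgeR adjusted p = 0.00443), with KO above WT under every treatment.

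Oas2, of the same family, had 6.70 and 6.17 CPM in KO vehicle against 4.07 and 3.52 CPM in WT vehicle, 9.61 CPM in KO against 3.70 CPM in WT after TPA, and 2.96 CPM in KO against 2.10 CPM in WT after FA+TPA. Oas2 differed by 0.88 ± 0.17 (edgeR adjusted p = 0.019). Eif2ak2, the RNA-activated kinase PKR that stops translation, had 30.1 and 25.4 CPM in KO vehicle against 16.8 and 23.6 CPM in WT vehicle, 28.3 CPM in KO against 18.7 CPM in WT after TPA, and 16.8 CPM in KO against 12.0 CPM in WT after FA+TPA. Eif2ak2 gave the smallest called difference, 0.50 ± 0.12 (edgeR adjusted p = 0.0438).

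Of the genes that act on virus entry, budding and replication, Rsad2, Bst2 and Samd9l were called. Rsad2 (ENSMUSG00000020641, chromosome 12, 26442746 to 26456452), the radical SAM enzyme viperin, had 2.53 and 1.68 CPM in KO vehicle against 0.452 and 0.414 CPM in WT vehicle, 2.69 CPM in KO against 0.370 CPM in WT after TPA, and 0.302 CPM in KO against 0.254 CPM in WT after FA+TPA. Rsad2 differed by 2.20 ± 0.36 (edgeR adjusted p = 0.00877), while its FA+TPA libraries held only 5 counts in KO and 4 counts in WT. Bst2, or tetherin, which holds budding virions at the cell surface, had 2.39 and 3.54 CPM in KO vehicle against 1.19 and 1.50 CPM in WT vehicle, 4.49 CPM in KO against 3.21 CPM in WT after TPA, and 4.05 CPM in KO against 2.29 CPM in WT after FA+TPA. Samd9l, an antiviral factor that restricts poxviruses, had 21.2 and 17.7 CPM in KO vehicle against 10.7 and 14.3 CPM in WT vehicle, 10.6 CPM in KO against 5.30 CPM in WT after TPA, and 9.30 CPM in KO against 5.34 CPM in WT after FA+TPA. Both had every KO library above the WT libraries of the same treatment, by 0.87 ± 0.21 for Bst2 (edgeR adjusted p = 0.0477) and 0.75 ± 0.13 for Samd9l (edgeR adjusted p = 0.0123).

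Herc6, the ligase that attaches Isg15 to proteins in mouse, had 22.3 and 16.4 CPM in KO vehicle against 11.4 and 12.6 CPM in WT vehicle, 10.3 CPM in KO against 3.64 CPM in WT after TPA, and 7.91 CPM in KO against 5.03 CPM in WT after FA+TPA. Herc6 was the called gene of the ubiquitin and ADP-ribosylation enzymes, at 0.86 ± 0.16 (edgeR adjusted p = 0.0184). Xaf1 (ENSMUSG00000040483, chromosome 11, 72301629 to 72313733), known as an antagonist of the apoptosis inhibitor XIAP, had 22.2 and 13.8 CPM in KO vehicle against 7.07 and 9.78 CPM in WT vehicle, 13.1 CPM in KO against 4.75 CPM in WT after TPA, and 8.03 CPM in KO against 3.50 CPM in WT after FA+TPA. Xaf1 differed by 1.20 ± 0.18 (edgeR adjusted p = 0.00525), and its KO difference was between 1.09 and 1.46 under each of the treatments. Rtp4, a chaperone of cell-surface receptors in the Golgi, had 2.63 and 2.18 CPM in KO vehicle against 0.226 and 0.621 CPM in WT vehicle, 1.66 CPM in KO against 0.678 CPM in WT after TPA, and 0.543 CPM in KO against 0.127 CPM in WT after FA+TPA. Rtp4 differed by 2.06 ± 0.35 (edgeR adjusted p = 0.0104).

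Ifi44 (ENSMUSG00000028037, chromosome 3, 151730922 to 151749960), an interferon-induced gene whose product is less well defined, had 2.91 and 1.18 CPM in KO vehicle (62 and 26 counts) against 0 and 0.259 CPM in WT vehicle (0 and 5 counts). After TPA it had 1.93 CPM in KO (43 counts) against 0.185 CPM in WT (3 counts), and after FA+TPA 0.181 CPM in KO (3 counts) against 0.0636 CPM in WT (1 count). Its fitted difference of 3.52 ± 0.60 (edgeR adjusted p = 0.0107) was the largest of the 13, but rests on WT libraries of at most 5 counts and so depends on how the fit treats low counts. Of the 13 genes higher in KO, 10 had a promoter entry and 3 of these held a response element match, against 7 of the 18 tested genes with an entry that were not called. The share with a match was not larger among the called genes.

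**Figure D3:**
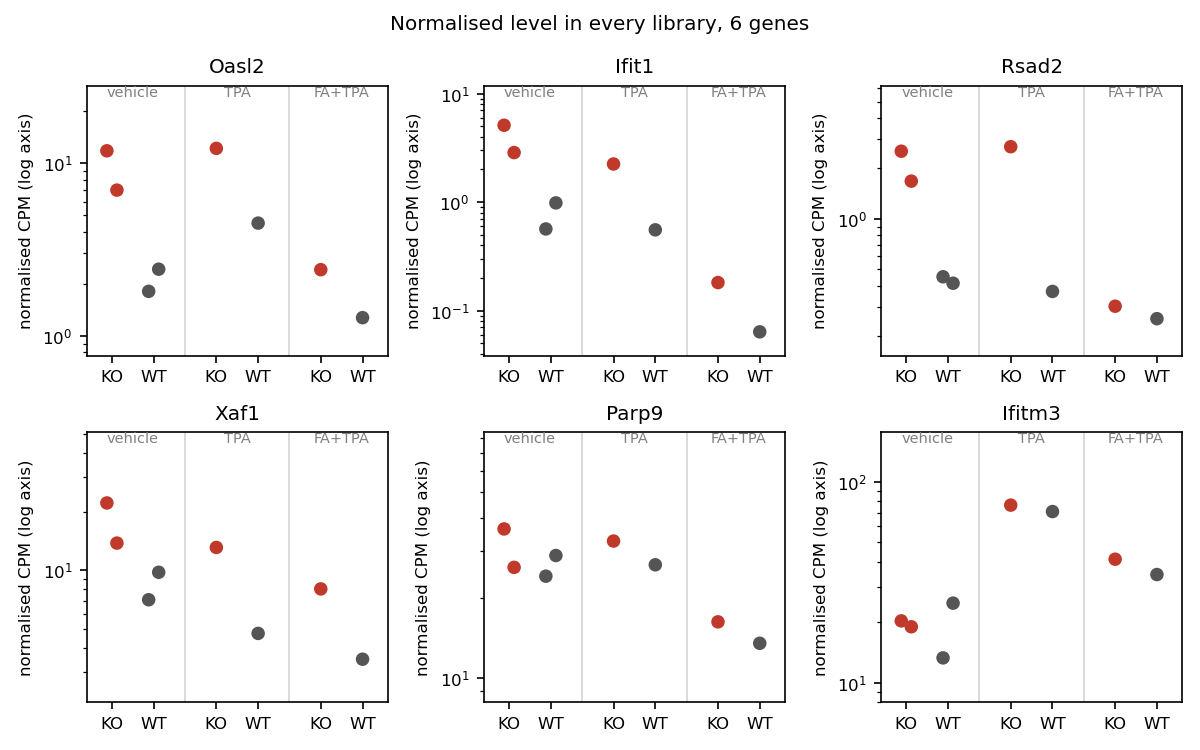
Normalised level (CPM, log axis) of 6 genes in each library, red for KO and grey for WT, under vehicle, TPA and FA+TPA, with each point a library. Oasl2, Ifit1, Rsad2 and Xaf1 lie higher in KO than in WT in vehicle skin, while Parp9 and Ifitm3 overlap between genotypes there and are lower after FA+TPA than after TPA in both.

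The genotype difference was already present in vehicle skin. There 5 of the 39 genes were called higher in KO and 0 lower, where 1.44% of all genes were called higher, 0.727% lower and 2.17% in all, and the median difference was 0.64 against -0.02 over all genes. The 5 were Oasl2 at 2.14 ± 0.30 (edgeR adjusted p = 0.00699), Ifit1 at 2.34 ± 0.41 (0.0199), Rtp4 at 2.46 ± 0.45 (0.0226), Rsad2 at 2.26 ± 0.42 (0.0241) and Ifi44 at 3.86 ± 0.79 (0.0354). DESeq2 called 1 gene, Oasl2, and limma-voom 4. Both KO libraries lay above both WT libraries for 23 of the 39 genes, against 19.7% of all genes, and below both for 2, Ifitm1 and Isg20, against 20.1%. The median was 0.33 without KO vehicle replicate 1 and 0.77 without KO vehicle replicate 2.

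In TPA-treated skin, with 1 library per genotype, KO was above WT for 38 of the 39 genes, against 50.7% of all genes, and Ifi35 was the exception. KO was over 2-fold above WT for 18 of them, against 5.71% of all genes, and the median difference was 0.92 against 0.00 over all genes. No gene passed edgeR's quasi-likelihood test, where 0.0623% of all genes were called higher, 0.197% lower and 0.260% in all; 15 of the 39 had an unadjusted p under 0.05, and DESeq2 and limma-voom called 0. The largest differences by ratio of levels were in Ifi44, Rsad2 and Ifit1, and the smallest unadjusted p was that of Herc6 (1.50 ± 0.31, edgeR adjusted p = 0.117). After FA+TPA KO was above WT for 32 of the 39, against 49.3% of all genes, with a median of 0.28, and over 2-fold above for 5, against 4.36% of all genes. None passed there either, where 0.00519% of all genes were called higher, 0.0883% lower and 0.0935% in all; 3 had an unadjusted p under 0.05, and DESeq2 and limma-voom called 0. Of the 5 genes over 2-fold above after FA+TPA, Ifi44 and Ifit1 had 3 counts in KO against 1 in WT and cannot be read. Rtp4 had 9 counts in KO against 2 in WT. The others were Ddx60, with 30 counts in KO against 13 in WT, and Xaf1, with 133 against 55. The single treated libraries were assumed to vary like the vehicle pairs.

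**Figure D4:**
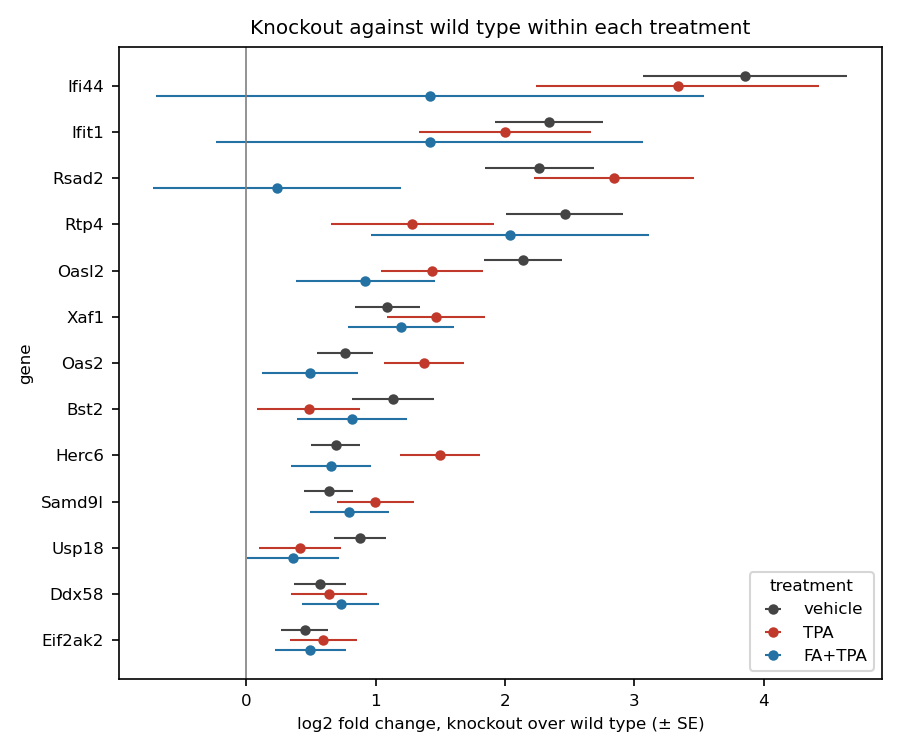
Log2 fold change of KO over WT (x axis, ± SE) in vehicle, TPA and FA+TPA skin for the 13 genes called over all treatments (rows). All values lie above 0, which the choice of these genes from the same libraries favours, so this adds no separate support. The SE is largest for Ifi44 and Ifit1 after FA+TPA, at 2.12 and 1.65, where they had 3 counts or fewer.

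Over all treatments the 13 calls became 6 without KO vehicle replicate 1, 8 without the KO FA+TPA library and 8 without the WT FA+TPA library, and Oasl2 and Xaf1 were called under all 16 alternatives tried. Bst2 was called under 5 of the 16, Eif2ak2 under 7, and Usp18 and Ddx58 under 9 each. In vehicle skin the number of calls rose with each library left out, and after TPA it rose with any vehicle library left out. A fit without a vehicle library takes its spread from a single remaining vehicle pair. The numbers of calls within a treatment with a library left out are therefore not given or read.

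The second comparison asked how FA given before TPA changed these genes relative to TPA alone, with genotype as a covariate. FA+TPA was lower than TPA for 13 of the 39 genes and higher for 0, where 4.31% of all genes were called lower and 5.71% higher. The median change was -0.70 on the log2 scale against 0.01 over all genes, and 37 of the 39 lay below 0. Irf7 and Ifi27 lay above 0. Both FA+TPA libraries lay below both TPA libraries for 22 of the 39, against 25.4% of all genes, and above both for 1, against 27.4%. DESeq2 called 14 genes lower and 1 higher, and limma-voom 13 lower.

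The signalling genes split. Stat2 (ENSMUSG00000040033, chromosome 10, 128270559 to 128292849), a subunit of ISGF3, had 27.5 CPM in KO and 25.5 CPM in WT after FA+TPA, against 56.5 CPM in KO and 41.6 CPM in WT after TPA. In vehicle skin Stat2 had 54.1 and 45.3 CPM in KO and 35.3 and 39.3 CPM in WT. Stat2 fell with FA by 0.87 ± 0.13 on the log2 scale (edgeR adjusted p = 0.00203), to below its level in every vehicle library. Irf9, the DNA-binding subunit, had 39.6 CPM in KO and 36.8 CPM in WT after FA+TPA, against 54.2 CPM in KO and 49.6 CPM in WT after TPA. In vehicle skin Irf9 had 59.7 and 45.7 CPM in KO and 48.8 and 50.7 CPM in WT. Its change of -0.44 ± 0.13 missed the threshold (edgeR adjusted p = 0.0509), although both FA+TPA libraries were the lowest of the 8. Irf7, which drives further interferon production, went the other way, with 22.7 CPM in KO and 28.0 CPM in WT after FA+TPA, against 17.0 CPM in KO and 14.5 CPM in WT after TPA. In vehicle skin Irf7 had 14.8 and 11.5 CPM in KO and 8.82 and 8.74 CPM in WT. Its change of 0.70 ± 0.21 did not pass (edgeR adjusted p = 0.0647), yet both FA+TPA libraries lay above all others, and it was the sole gene of the 39 with that order against TPA.

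Zbp1, a sensor of Z-form nucleic acids that can trigger cell death, had 0.483 CPM in KO and 0.509 CPM in WT after FA+TPA (8 counts each), against 5.07 CPM in KO and 2.47 CPM in WT after TPA. In vehicle skin Zbp1 had 2.53 and 0.863 CPM in KO and 0.565 and 1.19 CPM in WT. Zbp1 fell by 2.88 ± 0.56 (edgeR adjusted p = 0.00878) and was the called sensor. Of the RNA and translation effectors, 4 of 9 tested fell, and their levels in every library are given above with the genotype comparison. Ifit1 fell by 3.46 ± 0.65 (edgeR adjusted p = 0.00698), a value that depends on FA+TPA libraries of 3 and 1 counts. Oasl2 fell by 2.15 ± 0.37 (edgeR adjusted p = 0.00467), Oas2 by 1.33 ± 0.25 (0.00698) and Eif2ak2 by 0.70 ± 0.17 (0.0243). In each of these 4 the FA+TPA libraries were below both TPA libraries.

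Rsad2 fell by 2.31 ± 0.57 (edgeR adjusted p = 0.0281), a value that was -0.85 without the KO FA+TPA library and -1.66 without the KO TPA library. Ifitm3 (ENSMUSG00000025492, chromosome 7, 141009586 to 141010770) had 41.2 CPM in KO and 34.5 CPM in WT after FA+TPA, against 76.6 CPM in KO and 71.1 CPM in WT after TPA. In vehicle skin Ifitm3 had 20.3 and 19.0 CPM in KO and 13.3 and 24.9 CPM in WT. Ifitm3 fell by 0.97 ± 0.21 with FA (edgeR adjusted p = 0.0151), and its FA+TPA libraries still lay above every vehicle library.

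Of the ADP-ribosylation and ubiquitin enzymes 4 of 5 were called lower, against 4.31% of all genes, and Herc6 (-0.05 ± 0.24) did not pass. Parp9 (ENSMUSG00000022906, chromosome 16, 35938470 to 35972605), which forms a complex with the ubiquitin ligase Dtx3l, had 16.3 CPM in KO and 13.5 CPM in WT after FA+TPA, against 32.8 CPM in KO and 26.7 CPM in WT after TPA. In vehicle skin Parp9 had 36.4 and 26.1 CPM in KO and 24.2 and 28.9 CPM in WT. Parp9 fell by 0.99 ± 0.17 (edgeR adjusted p = 0.00379). Dtx3l had 18.6 CPM in KO and 13.1 CPM in WT after FA+TPA, against 32.3 CPM in KO and 27.9 CPM in WT after TPA. In vehicle skin Dtx3l had 43.8 and 32.4 CPM in KO and 27.3 and 35.1 CPM in WT. Dtx3l fell by 0.94 ± 0.17 (edgeR adjusted p = 0.00698). The annotated spans of Parp9 and Dtx3l overlap on opposite strands, so reads from the shared stretch cannot be told apart without the strand.

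Parp14, a mono-ADP-ribosyltransferase, had 21.4 CPM in KO and 18.2 CPM in WT after FA+TPA, against 43.3 CPM in KO and 30.6 CPM in WT after TPA. In vehicle skin Parp14 had 49.5 and 32.2 CPM in KO and 32.7 and 34.1 CPM in WT. Parp14 fell by 0.89 ± 0.18 (edgeR adjusted p = 0.0105). Trim30a, an inhibitor of NF-kB signalling in mouse, had 1.45 CPM in KO and 1.15 CPM in WT after FA+TPA, against 5.88 CPM in KO and 2.71 CPM in WT after TPA. In vehicle skin Trim30a had 3.05 and 2.72 CPM in KO and 1.98 and 3.26 CPM in WT. Trim30a fell by 1.70 ± 0.35 (edgeR adjusted p = 0.0119). For Parp9, Dtx3l, Parp14 and Trim30a both FA+TPA libraries were the lowest of the 8. Ifi35, an interferon-induced leucine zipper protein, had 10.9 CPM in KO and 9.80 CPM in WT after FA+TPA, against 18.6 CPM in KO and 19.6 CPM in WT after TPA. In vehicle skin Ifi35 had 12.5 and 11 CPM in KO and 11.6 and 12.0 CPM in WT. Ifi35 fell by 0.88 ± 0.14 (edgeR adjusted p = 0.00287) and showed no genotype difference (0.01 ± 0.10).

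Within each genotype, where the change rests on 1 library against 1 library, the median over the 39 genes was -0.87 in KO, with 38 below 0, and -0.48 in WT, with 29 below 0. Over all genes these medians were -0.00 in KO and 0.03 in WT. The difference between genotypes in the FA change was tested as an interaction: 0 genes passed by edgeR, DESeq2 or limma-voom, 1 had an unadjusted p under 0.05, and 0% of all genes were called by edgeR. That gene was Cmpk2, a nucleotide kinase that lies beside Rsad2, with 0.121 CPM in KO (2 counts) and 0.445 CPM in WT (7 counts) after FA+TPA, against 1.39 CPM in KO (31 counts) and 0.370 CPM in WT (6 counts) after TPA. The KO TPA library enters both this change and the genotype difference under TPA, so the one is not independent of the other.

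**Figure D5:**
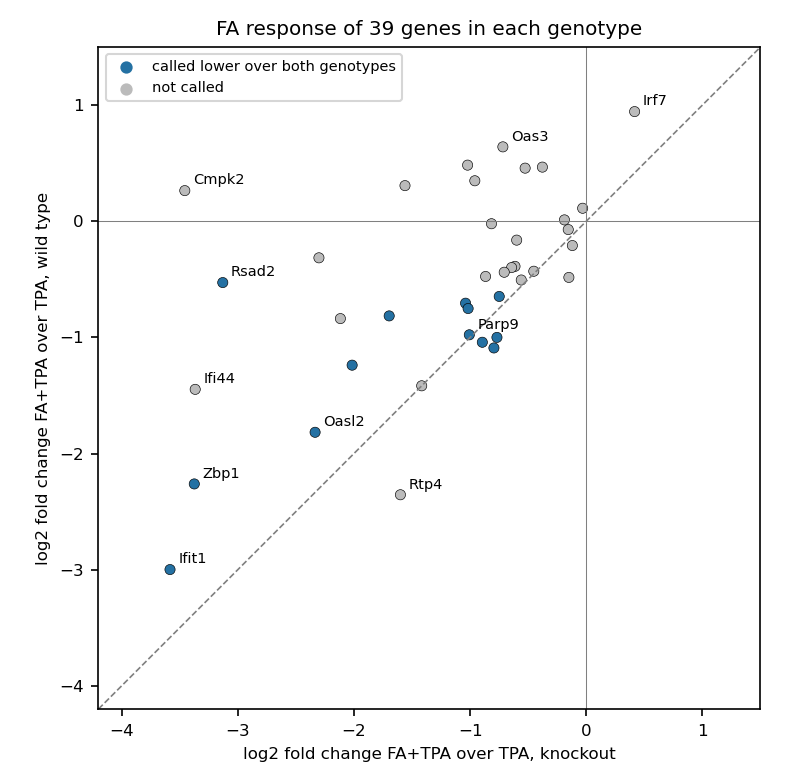
Log2 fold change of FA+TPA over TPA in KO (x axis) and in WT (y axis) for the 39 genes tested, each point a gene and each value 1 library against 1 library, with the dashed line marking equal change. Blue points are the 13 genes called lower over both genotypes; Cmpk2, Rsad2 and Ifi44 lie far above the line, and Irf7 lies above 0 in both genotypes.

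The 13 calls with FA became 5 without the KO FA+TPA library, 5 without the KO TPA library and 8 without the WT FA+TPA library, and 4, 5 and 7 of these were among the 13. Stat2 and Parp9 were called under all 16 alternatives.

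The third comparison set TPA against vehicle. It showed no common direction: 7 of the 39 genes rose and 8 fell, where 23.2% of all genes were called higher and 22.8% lower, and the median was -0.01 against -0.03 over all genes. The members' shares lay below those of all genes. Scaled by library size only, the split was 6 higher and 12 lower. The genes that rose were Irf7 (0.53), Zbp1 (1.53), Mx1 (1.89), Ifitm1 (1.72), Ifitm3 (1.93), Bst2 (0.88) and Ifi35 (0.70). Those that fell were Usp18 (-1.19), Isg15 (-1.21), Ifih1 (-0.49), Ddx60 (-1.85), Ifitm6 (-3.73), Samd9l (-1.03), Herc6 (-1.23) and Xaf1 (-0.61). The rise of Ifitm1 lay mostly in KO, at 2.76 against 0.36 in WT. Irf7 was called under 10 of 16 alternatives and Xaf1 under 9. Usp18, Ddx60, Mx1, Ifitm3, Ifitm6, Samd9l, Herc6 and Ifi35 were called under all 16.

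The Ifitm neighbours on chromosome 7 went opposite ways. Ifitm6 (ENSMUSG00000059108, chromosome 7, 141015699 to 141017924) had 4.67 CPM in KO and 3.21 CPM in WT after TPA, against 46.1 and 48.1 CPM in KO vehicle and 40.2 and 80.2 CPM in WT vehicle. After FA+TPA it had 3.08 CPM in KO and 2.86 CPM in WT. Ifitm6 fell with TPA by 3.73 ± 0.31 (edgeR adjusted p = 5.74e-06), while Ifitm3, with the values given above, rose by 1.93 ± 0.18 (1.01e-05). Mx1 (ENSMUSG00000000386, chromosome 16, 97447035 to 97462907), a dynamin-like GTPase, had 8.39 CPM in KO and 6.04 CPM in WT after TPA. It had 2.25 and 2.91 CPM in KO vehicle and 1.41 and 1.29 CPM in WT vehicle. After FA+TPA Mx1 had 5.37 CPM in KO and 4.58 CPM in WT. Mx1 rose by 1.89 ± 0.20 (edgeR adjusted p = 3.4e-05), with no overlap between treated and vehicle libraries. Usp18 fell by 1.19 ± 0.19 (edgeR adjusted p = 0.000485), Samd9l fell by 1.03 ± 0.17 (0.000521) and Ifi35 rose by 0.70 ± 0.12 (0.000625). Of these 3, Usp18 and Samd9l had both TPA libraries below all 4 vehicle libraries, and Ifi35 had both above. The interaction of genotype with TPA passed for 0 genes by edgeR, DESeq2 and limma-voom, with 2 at an unadjusted p under 0.05, where 0.00519% of all genes were called lower.

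Set directly against vehicle, FA+TPA skin held lower levels of most of these genes. Of the 39, 22 were lower and 3 higher, where 14.2% of all genes were called lower and 17.4% higher, with a median of -0.91 against -0.01 over all genes. The 3 higher were Irf7 (1.24), Mx1 (1.37) and Ifitm3 (0.96). Both FA+TPA libraries lay below all 4 vehicle libraries for 19 of the 39, against 22.9% of all genes. Without the KO FA+TPA library 14 genes were called. T cell and Langerhans cell marker sums, given with the other cell types, were also lower after FA+TPA than in vehicle skin. The comparisons of FA+TPA with TPA, of TPA with vehicle and of FA+TPA with vehicle share libraries, so their values are not independent of each other.

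The rest of the pathway was examined from lists of its parts. Of 14 interferon ligand genes, 7 had 0 counts in every library and 2 had 10 or more counts in all. Ifna13 reached at most 6 counts in a library and was not tested. Ifnk, interferon kappa, had 0.898 CPM in KO and 1.11 CPM in WT after TPA, against 3.09 and 5.08 CPM in KO vehicle and 3.79 and 2.07 CPM in WT vehicle, and 1.03 CPM in KO and 1.65 CPM in WT after FA+TPA. Ifnk fell with TPA by 1.81 ± 0.40 (edgeR adjusted p = 0.00346) and differed between genotypes by 0.13 ± 0.30 (edgeR adjusted p = 0.903).

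With FA, 3 of 5 kinases and STATs fell, Stat3 by 0.88 ± 0.10 among them, and 1 of 6 receptors, Ifngr2 (-0.71 ± 0.11), a chain of the interferon gamma receptor. Of 6 interferon regulatory factors 2 fell, Irf1 by 1.14 ± 0.15 and Irf8 by 0.89 ± 0.22. Of 14 sensors and adaptors 4 fell, led by Tmem173 (STING) by 1.80 ± 0.28 and Myd88 by 0.66 ± 0.10. Of 9 tested inhibitors of the pathway 2 fell, the feedback inhibitors Socs1 by 1.70 ± 0.26 and Socs3 by 1.21 ± 0.20.

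Of 9 tested targets typical of interferon gamma 2 fell, Ciita by 0.60 ± 0.12 and the GTPase Igtp by 1.37 ± 0.30. Of 32 other interferon-stimulated genes tested 6 fell, with a median of -0.46, Helz2 by 0.74 ± 0.15 and Parp12 by 0.61 ± 0.13 among them. No gene of these 8 lists was called higher with FA. With 4.31% of all genes called lower, small lists with 1 to 4 calls are given as counts only.

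None of the tested ligands, receptors, kinases and STATs, regulatory factors, sensors and adaptors or inhibitors was called between KO and WT over all treatments, and their median differences lay between -0.06 and 0.13. Among the interferon gamma targets 1 of 9 was called, Igtp at 0.91 ± 0.21 (edgeR adjusted p = 0.0396), and the median was 0.46. Among the other interferon-stimulated genes 1 of 32 was called, Slfn2 at 0.63 ± 0.14 (edgeR adjusted p = 0.033), and the median was 0.24. In vehicle skin the chemokine Cxcl10 had 2.48 and 2.04 CPM in KO against 0.283 and 0.776 CPM in WT, and Cxcl9 had 1.97 and 2.63 CPM in KO against 0.283 and 0.466 CPM in WT. Both were called higher in KO vehicle skin, Cxcl9 at 2.59 ± 0.43 (edgeR adjusted p = 0.015) and Cxcl10 at 2.06 ± 0.45 (0.0457).

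Markers of other cell types moved between some of these libraries, and in bulk RNA fewer cells of a type and less RNA per cell cannot be told apart. Neutrophil markers, with 8 of 9 at 10 or more counts, summed to 199 CPM in KO and 109 CPM in WT after FA+TPA, to 397 CPM in KO and 932 CPM in WT after TPA, and to between 4.80 and 15.5 CPM in vehicle libraries. After TPA S100a8 and S100a9 gave most of this sum, and differed by -1.45 and -1.44 on the log2 scale in KO against WT. Csf3r lay the other way at 1.55, with 775 counts in KO against 193 counts in WT, and Cxcr2 was at 0.06. Mpo, at -1.97, had 2 counts in KO against 6 counts in WT. The neutrophil sum thus gives no direction between genotypes after TPA. Ly6g had at most 1 count in a library. With FA, 3 of 5 tested neutrophil markers fell. Macrophage and monocyte markers, all 11 at 10 or more counts, summed to 168 CPM in KO and 138 CPM in WT after FA+TPA, to 323 CPM in KO and 129 CPM in WT after TPA, and to between 113 and 128 CPM in vehicle libraries. Of 10 tested, 3 fell and 2 rose with FA. Keratinocyte markers, all 7 at 10 or more counts, summed to 29174 CPM in KO and 32668 CPM in WT after FA+TPA, against 18015 CPM in KO and 22300 CPM in WT after TPA, and 3 of the 7 rose with FA. The KO TPA library held the highest macrophage sum as well as high interferon-stimulated transcripts.

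In vehicle skin the macrophage and monocyte sums were 113 and 118 CPM in KO against 115 and 128 CPM in WT, with Csf1r, the receptor of the macrophage growth factor M-CSF, giving most of the counts. Single markers of that list went another way. Ccr2, a chemokine receptor of monocytes, had 23 and 45 counts in KO vehicle against 6 and 8 counts in WT vehicle, 252 counts in KO against 44 counts in WT after TPA, and 21 counts in KO against 20 counts in WT after FA+TPA. Ccr2 was called higher in KO over all treatments (1.58 ± 0.36, edgeR adjusted p = 0.0395), and in vehicle skin alone its difference of 2.03 ± 0.46 missed the threshold (edgeR adjusted p = 0.0525). Mrc1, a mannose receptor of macrophages, had 186 CPM in KO against 42.4 CPM in WT after TPA and was called higher in KO there (2.13 ± 0.34, edgeR adjusted p = 0.0413). The genotype differences of Ccr2 and Mrc1 were not of the same size under every treatment. Mrc1 had 38 and 69 counts in KO vehicle against 30 and 75 counts in WT vehicle (-0.19 ± 0.36). The Ccr2 difference after FA+TPA was -0.0047, and Cd68 (-0.04) and Cd14 (-0.07) also lay below 0 there. The other tested markers of the list lay above 0 after FA+TPA, and none was called. They were Lyz2 (0.77), C1qb (0.57), Mrc1 (0.51), C1qc (0.45), Adgre1 (0.45), Csf1r (0.19) and C1qa (0.10). T cell markers, all 10 at 10 or more counts, summed to 69.6 and 52.3 CPM in KO vehicle against 73.9 and 76.9 CPM in WT vehicle. They summed to 28.0 CPM in KO and 26.9 CPM in WT after FA+TPA, and to 27.5 CPM in KO and 26.0 CPM in WT after TPA, and 5 of the 10 fell in FA+TPA relative to vehicle. Langerhans and dendritic cell markers, all 9 at 10 or more counts, summed to 628 CPM in KO and 486 CPM in WT after FA+TPA, to 716 CPM in KO and 678 CPM in WT after TPA, and to between 905 and 1040 CPM in vehicle libraries. Of these 9, 6 fell and 2 rose in FA+TPA relative to vehicle. Within the T cell list Cd8a and Cd4 were called higher and Cd3e and Trdc lower in KO over all treatments. Skeletal muscle markers, all 5 at 10 or more counts, summed to 161 and 49.8 CPM in KO vehicle against 19.2 and 4.97 CPM in WT vehicle, and 4 of the 5 were called higher in KO vehicle. Markers of plasmacytoid dendritic cells, which make type I interferon, summed to between 3.80 and 4.35 CPM in KO and between 6.26 and 7.38 CPM in WT libraries, but Ccr9, which other lymphocytes also express, gave most of these counts. Ccr9 was lower in KO over all treatments (-0.89 ± 0.14, edgeR adjusted p = 0.00627). Siglech, the marker most particular to these cells, was too low to test, with 7 and 9 counts in KO vehicle against 2 and 1 counts in WT vehicle, and at most 4 counts in each treated library. The sum therefore gives no direction for these cells. B cell markers summed to at most 0.700 CPM, with Pax5 at 0 counts in every library. The part of these cell types in the differences of the interferon-stimulated genes was not tested.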

How the data were processed

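Total RNA of scraped epidermis was sequenced in 8 libraries. The deposited files held raw read counts per Ensembl gene, made by the authors with Trim Galore, STAR, HTSeq and build mm10, per the submitters' processing notes. The sources used here do not give their versions, the annotation or the strand setting. Without the strand, overlapping genes are not separable, and near-identical copies (Ifit3 and Ifit3b, Oas1a and Oas1g, the Ifitm genes) may have had their reads split or dropped. Gene symbols and coordinates came from GENCODE M21 (54165 of 54232 identifiers matched). Groups came from the labels.

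The tests used edgeR 4.0.16 under R 4.3.3 (quasi-likelihood F test, TMM factors from 0.859 to 1.102, filterByExpr grouped on treatment at a minimum of 10 counts, Benjamini-Hochberg adjustment over 19251 genes, threshold 0.05). Treatment effects and genotype over all treatments were fitted additively (4 residual degrees of freedom). In that fit the genotypes served as the replicates of a treatment, so a response particular to a genotype entered the spread. Genotype within a treatment and interactions were fitted with 1 mean per group (2 residual degrees of freedom, which the vehicle pairs supply). Standard errors are the absolute log2 fold change over the square root of F.

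Alternatives were RLE, scaling by library size only, omission of the low-count filter, a minimum of 50 counts, DESeq2 1.42.0, limma-voom (limma 3.58.1), 1 mean per group, removal of Gm26917 (8.34% to 24.2% of counts), each library left out, and replicate blocks in vehicle skin. Genes named with all their values are those called with FA or between genotypes, the 6 with the smallest p for TPA, the 3 highest per kilobase and the signalling group; pathway lists give up to 2 genes with the smallest p for FA, and the ligands. One gene that the rule names is not reported here. Isg20, the chemokines, Slfn2 and the single markers were named after their values were seen. The members and lists were chosen with earlier results of these data known.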

Additional observations from a re-analysis of the deposited data

How the results depend on the processing

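No called gene changed direction under any alternative. Called with FA against TPA were 13 genes, and between 5 and 16 with each library left out; with FA+TPA against vehicle 25, and between 14 and 27. In KO against WT over all treatments 13 became 8 with a minimum count of 50 and 5 with 1 mean per group, and between 6 and 14 with each library left out. In vehicle skin 5 became 8 with library size only, 2 with a minimum count of 50 and 1 with DESeq2, and between 6 and 18 with each library left out. After TPA 0 became 1 with library size only, and between 0 and 9 with each library left out, after FA+TPA between 0 and 1, and for the interaction with TPA between 0 and 1. The cause was not tested. The median for TPA against vehicle, -0.01, was 0.019 without the low-count filter, 0.025 with limma-voom and 0.017 with 1 mean per group, and between -0.17 and 0.11 with each library left out. Library size only moved the median of all genes to -0.25 for TPA against vehicle, -0.23 for FA+TPA against vehicle, 0.21 for KO against WT after TPA, -0.20 for the interaction with FA and 0.19 for that with TPA. It changed the TPA split of 7 higher and 8 lower to 6 and 12.

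With the vehicle libraries alone, 3 genes were called without a replicate block, 12 with the replicate block and 12 with the crossed pairing, an alternative chosen after seeing the data. The numbers are not said to pair samples, and same-numbered deviations correlated at -0.16 over 11924 genes, so the block is given as a value only.

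Each treated group had 1 library per genotype, and genes with few counts after FA+TPA (Ifit1, Rsad2, Ifi44, Zbp1) limit what can be read there.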
